A study of Mus musculus with 3 samples.

Results

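The genes of intestinal fat export were examined in scRNA-seq of sorted mouse intestinal epithelium lacking the transcription factor ARID3A. They comprise 10 genes of 51912 in the count tables, each matched to 1 row by its symbol: 5 apolipoproteins (Apob, Apoa1, Apoa4, Apoc2 and Apoc3), the lipid transfer protein Mttp, the triglyceride synthesis enzymes Mogat2, Dgat1 and Dgat2, and the transcription factor Creb3l3. The list was drawn up by function, with earlier results of these data known. Both groups carried VillinCreERT2, a Cre recombinase driven by the villin promoter of intestinal epithelial cells and switched on by tamoxifen. The controls (WT, 1 library) carried it alone, and the Arid3a cKO mice (2 libraries) carried it together with floxed Arid3a (Arid3a fl/fl). All received tamoxifen at 8 to 10 weeks of age and were harvested 1 month after the first injection. Crypts, taken from the proximal jejunum in the study's methods, were dissociated and sorted for living (DAPI-), Epcam+, CD45- and CD31- cells, and libraries were made with the 10x 3′ kit, in which transcripts are counted by unique molecular identifiers (UMIs). With a single WT library, a difference between genotypes and a peculiarity of that library cannot be told apart. The design text speaks of 2 replicates per condition, and a second WT library was not analysed here.

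Enterocytes absorb the products of fat digestion and rebuild them into triglyceride in the endoplasmic reticulum, where the monoacylglycerol acyltransferase Mogat2 and the diacylglycerol acyltransferases Dgat1 and Dgat2 act in sequence. Mttp loads this lipid onto apolipoprotein B, the structural protein of which each chylomicron carries a single copy, and the growing particle takes on Apoa4 and Apoa1 before it leaves towards the lymph. Apoc2 activates and Apoc3 restrains lipoprotein lipase, the enzyme that later unloads the particle, and Creb3l3 is a membrane-bound transcription factor of the liver and intestine that is released to act on lipid genes.

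The genes lie at 7 places in the genome. In the GENCODE M21 annotation of GRCm38, matched by gene identifier, all 10 are protein-coding. Apoa1 (chr9:46228580-46230466, plus strand), Apoc3 (chr9:46232933-46235636, minus strand) and Apoa4 (chr9:46240696-46243459, plus strand) stand side by side within 14.9 kb. Mogat2 (chr7:99219084-99238619) and Dgat2 (chr7:99153658-99182719), both on the minus strand, are 36.4 kb apart. The other genes have none of the 10 beside them, namely Apob (chr12:7977648-8016835, plus strand), Apoc2 (chr7:19671579-19677941, minus strand), Mttp (chr3:138089854-138144968, minus strand), Dgat1 (chr15:76502015-76511953, minus strand) and Creb3l3 (chr10:81084324-81098874, minus strand). Where another annotated gene overlaps a member, its reads may not be separable, because whether the counting used strand is not stated in the sources used here. This touches Apoa4, which overlaps the opposite-strand gene Gm47528 by 1337 bases and the antisense gene Gm10680 by 839 bases. It also touches Mogat2 and Mttp, which have antisense genes and, for Mttp, the opposite-strand gene Trmt10a. Apoc2 lies almost wholly within the same-strand gene Gm44805, to which 0 UMIs were assigned in enterocyte-like cells. There Gm10680 had 210, 161 and 142 UMIs and Gm47528 had 92, 95 and 92 UMIs in Arid3a cKO 1, Arid3a cKO 2 and WT.

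Promoters of 6 of the 10 genes, from 250 bases before to 50 bases after the start site, are held in the RefSeq table (GRCm38.p6). Apoc3, Mogat2, Dgat1 and Dgat2 were not matched. They were searched on both strands for the core CAAAGNNCA of HNF4, a factor that acts on enterocyte lipid genes, for ATTAAA, an A+T-rich core bound by ARID3A, and for TGACGT, the core of a cyclic AMP response element. The HNF4 core was found in Apoa4, 182 bases before the start, in Apob, 103 bases before it, and in 1 of 2 Creb3l3 promoters, and it occurs in 6.36% of all 32851 promoters in the table. The response element core was found in the Mttp promoter, 29 bases before the start, against 7.51% of all promoters. ATTAAA was in none of the 7 promoters of these genes and is in 13.9% of all. Such matches describe letters in these windows only. The start sites are those of RefSeq and need not be the GENCODE gene starts given above. They differ from these for Apoa4, Mttp, Apoa1, Apob and Creb3l3. The Creb3l3 promoter with the HNF4 match (chr10:81092542-81092841) lies inside the annotated gene. Promoters of 3 abundant apolipoproteins are shown, since their transcripts make up most of the UMIs described below: Apoa4 (chr9:46240594-46240893), Apob (chr12:7977427-7977726) and Apoa1 (chr9:46228380-46228679), each on the plus strand. Capitals mark the HNF4 match, which in Apob lies on the opposite strand and is printed as its reverse complement, and Apoa1 has no match.
Apoa4: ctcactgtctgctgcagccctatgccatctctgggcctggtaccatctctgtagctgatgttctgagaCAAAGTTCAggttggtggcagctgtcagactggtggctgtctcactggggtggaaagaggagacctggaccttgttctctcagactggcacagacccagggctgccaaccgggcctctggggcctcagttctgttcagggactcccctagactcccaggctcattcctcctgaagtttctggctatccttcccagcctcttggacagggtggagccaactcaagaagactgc
Apob: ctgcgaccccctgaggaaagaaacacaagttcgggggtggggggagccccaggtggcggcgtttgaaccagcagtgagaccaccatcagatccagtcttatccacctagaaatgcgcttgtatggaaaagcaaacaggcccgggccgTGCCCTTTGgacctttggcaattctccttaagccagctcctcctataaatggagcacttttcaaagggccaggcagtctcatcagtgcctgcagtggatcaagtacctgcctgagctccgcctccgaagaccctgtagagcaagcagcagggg
Apoa1: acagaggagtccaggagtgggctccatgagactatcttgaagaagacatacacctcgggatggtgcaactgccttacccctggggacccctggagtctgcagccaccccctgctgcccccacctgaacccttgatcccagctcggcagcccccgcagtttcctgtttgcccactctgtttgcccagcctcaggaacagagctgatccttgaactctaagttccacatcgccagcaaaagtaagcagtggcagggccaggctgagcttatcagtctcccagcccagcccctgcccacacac

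The matrices held 94614297 to 129243053 UMIs in 6845 to 11816 barcodes, of which 5594 cells were kept (1550 to 2134 per library, median 29895 to 35764 UMIs per cell). The limit of 15% mitochondrial UMIs was exceeded by 66.4% to 79.2% of barcodes. Libraries shared 11 to 18 barcodes, of which at most 2 were among the kept cells. Arid3a itself was counted 42 times in Arid3a cKO 1, 52 times in Arid3a cKO 2 and 161 times in WT, or 0.592, 0.894 and 2.57 CPM (UMIs scaled to a library total of 1e+06), in the direction of the labels. Of 12 clusters, 5 were enterocyte-like by markers such as Sis and Lct, and the crypt compartment was made of an intestinal stem cell (ISC)-like and a transit-amplifying (TA)-like cluster. Enterocyte-like cells numbered 1202, 852 and 967, and made up 56.3%, 54.97% and 50.6% of the kept cells in Arid3a cKO 1, Arid3a cKO 2 and WT. All values below are given in this order of libraries.

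Fat export transcripts were a sizeable part of the enterocyte transcriptome. Together the 10 genes took 1.68%, 2.02% and 1.60% of all UMIs in enterocyte-like cells, against 0.0777%, 0.1004% and 0.0960% in ISC- and TA-like cells. Apoa1 alone reached 7975, 10453 and 7469 CPM, followed by Apoa4 in every library. Apoc3, Mttp and Apob came next, and then Dgat1, Mogat2, Creb3l3, Dgat2 and Apoc2 in this order in every library. Mttp was close to its neighbours: it stood at 1274, 1272 and 1334 CPM, in a range that overlapped those of Apoc3 (1464, 1834 and 1311 CPM) and Apob (1205, 1285 and 1058 CPM). Mogat2 (362, 377 and 384 CPM) and Creb3l3 (310, 330 and 292 CPM) were neighbours whose ranges did not overlap. As transcripts are captured at their 3′ ends, these levels do not scale with transcript length. The plot of CPM in enterocyte- and crypt-like cells shows this order.

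**Figure D1:**
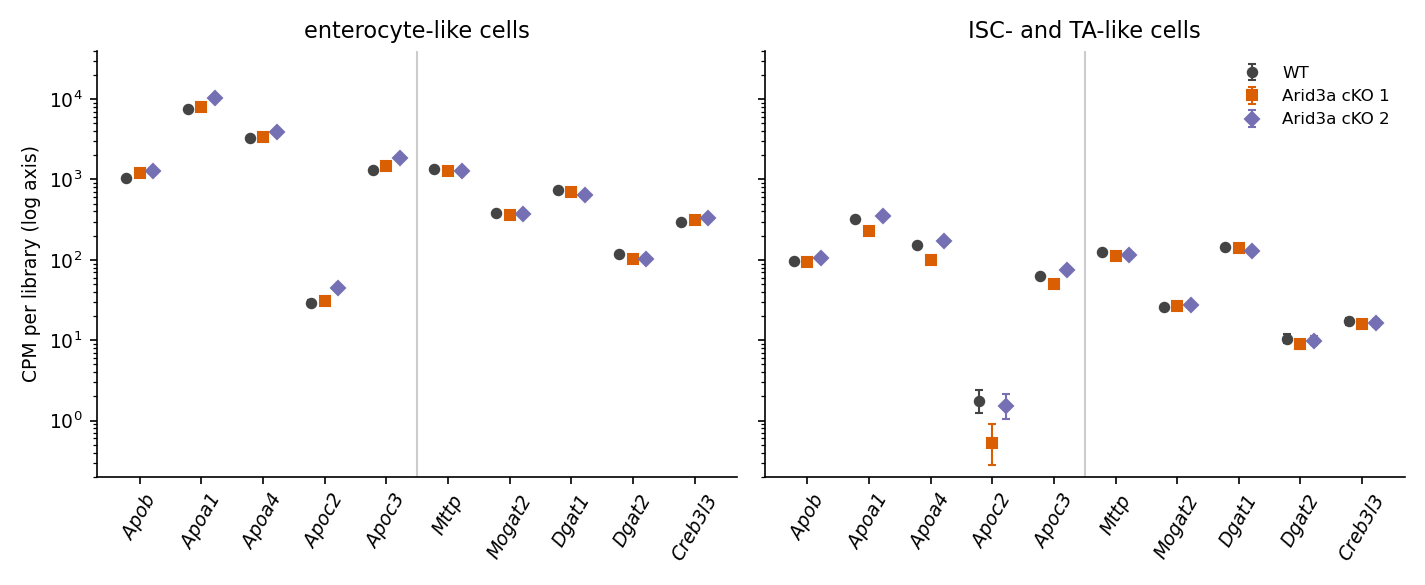
Level of the 10 genes in CPM (log axis) in enterocyte-like cells and in ISC- and TA-like cells, with 1 point per library (2 Arid3a cKO, 1 WT) and exact 95% Poisson intervals, which cover counting error only and are mostly smaller than the points. All 10 genes were lower in the crypt classes in every library, Apoa1 at 228 to 352 CPM against 7469 to 10453 CPM in enterocytes, and the libraries of both genotypes lie close together on this scale.

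In crypt and goblet-like cells most of these genes were at a small share of their enterocyte level, and in crypt cells the share of Dgat1 was the largest. In TA-like cells Dgat1, which is used for triglyceride synthesis in many tissues, stood at 21.4% to 23.0% of its enterocyte level, and in ISC-like cells at 16.6% to 16.9%. Apoa1 stood at 2.07% to 4.83% of its enterocyte level in ISC-like cells. Free RNA from broken cells can add UMIs of abundant enterocyte transcripts to other cells, so goblet-like cells are given for comparison. There Apoa1 was at 4.44% to 5.01% and Apoa4 at 5.27% to 6.57% of the enterocyte level. The ISC-like share of Apoa1 did not exceed the highest goblet-like share, but Paneth-like cells had less than goblet-like cells (0.516% to 2.97%, Arid3a cKO 1 and WT). What part of these levels is free RNA was not tested. Apob was at 7.06% to 9.35% in ISC- and TA-like cells, above its share in goblet-like cells of the same library (6.16%, 6.51% and 8.16%). Apoc3 in WT was at 4.56% in ISC-like and 5.01% in TA-like cells, above its 2.48% in goblet-like cells. The cKO libraries did not repeat this: Apoc3 was at 2.32% and 4.35% against 4.68% in Arid3a cKO 1. In Arid3a cKO 2 it was at 6.20% and 2.74% against 3.48%. Dgat1 in goblet-like cells was at 17.0% to 20.9%, near its level in the crypt classes, and no profile of empty droplets was measured.

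All 10 genes were also counted in enteroendocrine-like cells, with Apoa1 at 28.2% to 53.2% and Apob at 39.0% to 48.0% of the enterocyte level over both clusters. In the cluster led by Chga, Chgb and Cck (45, 43 and 87 cells) Apob stood at 261, 634 and 407 CPM, or 21.7%, 49.3% and 38.5% of the enterocyte level. Apoa4 in the same cells was at 1.29%, 29.3% and 21.5%, and Mttp at 5.24%, 15.9% and 11.7%. Apoa1 was at 3.57% to 20.4% there, below its share over both clusters. In each library the share of Apob was above those of Apoa4 and Mttp, but the libraries differed widely. A second enteroendocrine-like cluster (51 cells, led by Ghrl and Gip) had a median of 50720 UMIs per cell and held all 10 genes at a median of 62.6% of the enterocyte level in WT, so that it mixed the genes of both classes. In Paneth-like cells the genes were at 0.384% to 6.71% of the enterocyte level in Arid3a cKO 1 and WT, the libraries with at least 20 such cells.

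**Figure D2:**
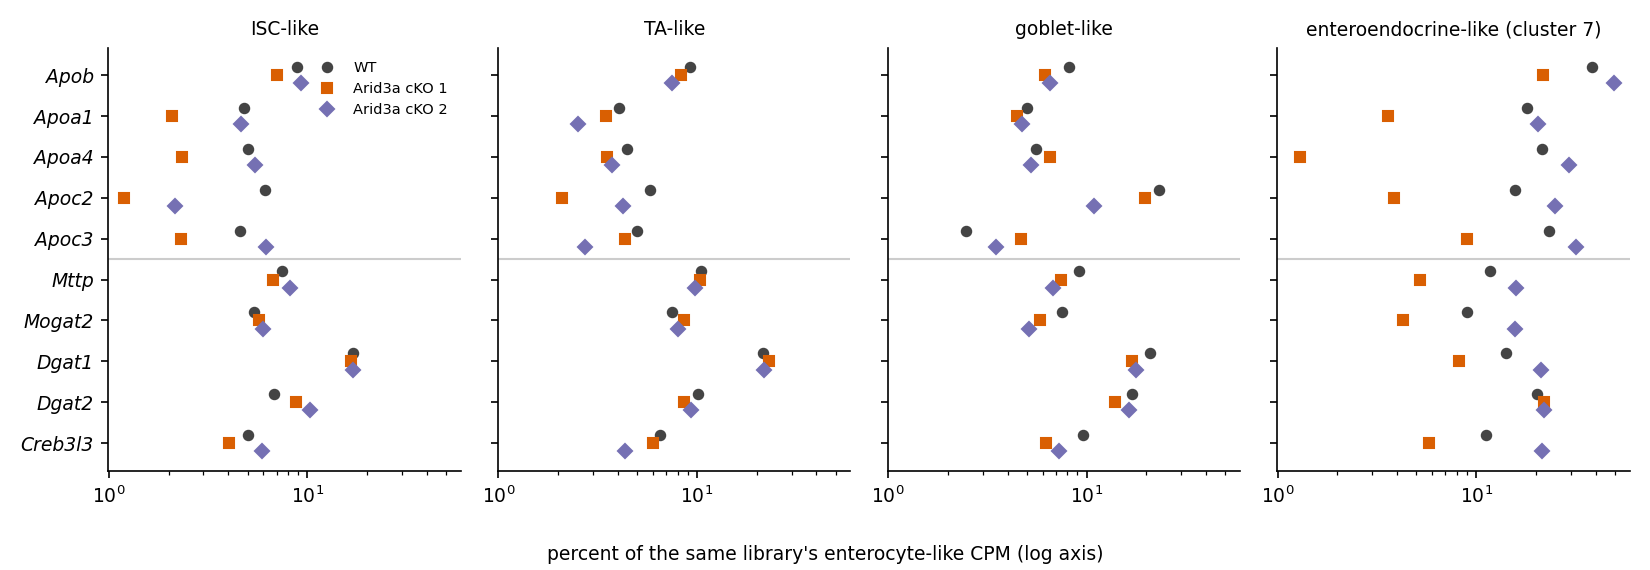
Level of each gene in other cell classes as a percent of its level in enterocyte-like cells of the same library, with 1 point per library, in ISC-like, TA-like, goblet-like and the larger enteroendocrine-like cells (log axis). Dgat1 lies highest among the genes in ISC- and TA-like cells (16.6% to 23.0%), and Apob lies above Apoa4 and Mttp in the enteroendocrine-like cluster.

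At a common depth of 22500 UMIs per cell, nearly every enterocyte-like cell held Mttp (99.9%, 99.9% and 99.9%) and Dgat1 (100% in each library). Shallower cells, 167 to 213 per library, were left out. Apoc2 was the sparsest and was found in 35.3%, 46.9% and 39.7% of enterocyte-like cells, with exact 95% intervals of 32.4% to 38.4%, 43.1% to 50.7% and 36.1% to 43.2% that cover counting error only. Before thinning the shares were 41.3%, 48.9% and 42.9%. In ISC- and TA-like cells Apoc2 was found in 0.716%, 1.81% and 2.58% of cells, below its share of 7.94%, 10.5% and 12.8% in goblet-like cells, where its level was 10.9% to 23.2% of that in enterocyte-like cells. Median depths were 31625.5, 35607 and 30106 UMIs in enterocyte-like and 23862, 31454 and 26495 UMIs in goblet-like cells. Apoc2 was thus found in the crypt classes at shares below those of goblet-like cells, and its share in enterocyte-like cells was lower than WT in Arid3a cKO 1 and higher in Arid3a cKO 2.

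Along the lineage the lipid enzymes came first and the apolipoproteins later. ISC-, TA- and enterocyte-like cells were ordered without the 10 genes and cut into 5 bins, and each gene was given the mean position of its level in percent of the order. Crypt and enterocyte landmarks ran from Lgr5 (16.5 ± 1.86, SD, n = 3 libraries) and Mki67 (27.7 ± 0.40) to the disaccharidases Sis (71.5 ± 0.29) and Lct (79.9 ± 1.64). Lgr5, Mki67, Sis and Lct were free to shape the order and are markers of the ordered classes, so their sequence is no check of it. The villus tip landmarks Ada (44.7 ± 20.3) and Nt5e (45.7 ± 7.62) were left out like the 10 genes. Their mean positions fell in the middle of the order, before Sis and Lct. For Nt5e this rests on 0 to 17 UMIs per bin and library, so that its position is uncertain. Ada spread widely over libraries (32.2, 68.1 and 33.9). It was highest in bin 5 in Arid3a cKO 2 (90.3 CPM), but in bin 1 in Arid3a cKO 1 and WT. Dgat1 came earliest of the 10 genes at 66.8 ± 0.16, followed by Dgat2 (69.8 ± 0.33), Creb3l3 (70.6 ± 0.31), Mttp (70.7 ± 0.72) and Mogat2 (71.6 ± 0.38). Neighbours among Creb3l3, Mttp and Mogat2 did not differ beyond their spread.

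The apolipoproteins followed at 75.1 ± 1.01 for Apob, 78.1 ± 0.46 for Apoa1, 79.7 ± 1.49 for Apoa4, 80.3 ± 0.65 for Apoc3 and 81.2 ± 1.81 for Apoc2 (n = 3 libraries each), where the ranges of Apoa1 and Apoa4 overlapped, as did those among Apoa4, Apoc3 and Apoc2. In each of the 3 libraries, all 5 apolipoproteins lay after all 5 other genes. The gap between the medians of both sets was 9.91, 9.01 and 8.24 percentage points (mean 9.05 ± 0.84, n = 3 libraries). Apob, the scaffold of the particle, was the earliest apolipoprotein in each library and stood nearest to the enzymes. In the middle bin, which held 959 enterocyte-like cells, Creb3l3 had reached 68.0% and Mttp 51.6% of the highest bin on average, while Apob had reached 24.0%, Apoa1 15.3% and Apoc2 5.35%. No test was run on this order, and the SD spans both genotypes.

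Positions also differed a little by library. Apob was centred at 76.0 and 75.3 in the cKO libraries and 74.0 in WT, Apoa4 at 81.2 and 79.6 against 78.3, and Apoc2 at 82.99 and 81.2 against 79.4. Including Apoc3, Mttp and Creb3l3, 6 of the 10 genes were later in both cKO libraries than in WT, against 36.6% of 13429 genes, and so was Lct (81.7 and 79.5 against 78.5). Mogat2 (71.5 and 71.2 against 71.96) and Dgat1 (66.7 and 66.7 against 66.95) were earlier in both, as were 32.6% of all genes. Apoa1 (78.6 and 77.8 against 77.9) and Dgat2 did not separate the genotypes. In the middle bin Apoa4 stood at 6.77% and 10.7% of its highest bin in the cKO libraries and at 15.2% in WT. These shifts were not tested, and the Ccl20-led cluster of low apolipoprotein cells had a different share in each library.

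**Figure D3:**
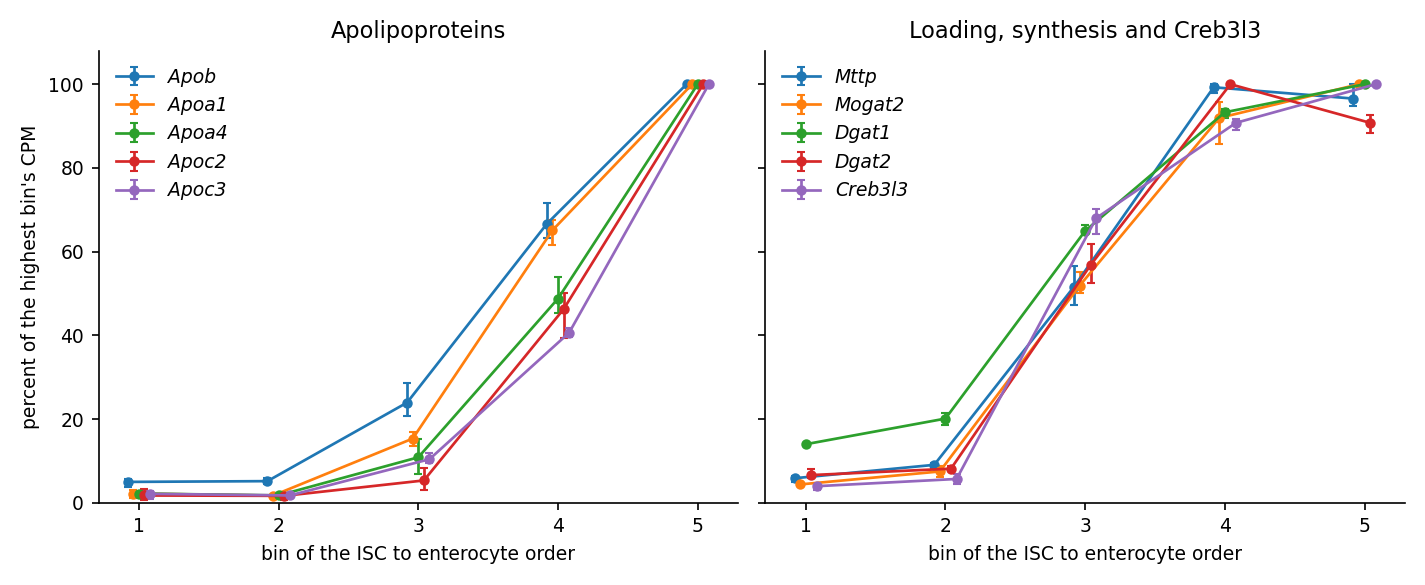
Level of each gene along 5 bins of the ISC to enterocyte order, as a percent of its highest bin, for the apolipoproteins (left) and the other 5 genes (right). Points are means of the 3 libraries and bars run from the lowest to the highest library. The enzymes, Mttp and Creb3l3 are past 47% by bin 3 in every library, while the apolipoproteins stay under 29% there and peak in bin 5.

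The 4 large enterocyte-like clusters differed in the same genes. The cluster led by Ccl20 had the lowest levels of all 10 genes: Apoa1 was at 794, 1050 and 671 CPM there, against 15269, 18137 and 13050 CPM in the cluster led by Cubn. Mttp differed less, with 511, 497 and 570 CPM against 1784, 1655 and 1636 CPM. Dgat2 departed from the other genes and was highest in the cluster led by Ms4a18 (140, 154 and 167 CPM), ahead of the Cubn-led cluster (136, 132 and 147 CPM), in every library. The other 9 genes were highest in the Cubn-led cluster, for Mttp and Creb3l3 by little in WT. Since the clusters were built from the transcriptomes of the same cells, though without the 10 genes, these levels are descriptions. The Ccl20-led cluster made up 27.95%, 23.2% and 21.3% of enterocyte-like cells, and the Cubn-led cluster 28.6%, 31.6% and 33.3%. Both shares differed between the libraries of a genotype as well as between genotypes, and their part in the differences below was not tested, apart from the values given without the Ccl20-led cluster.

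Single enterocytes varied in these genes to unequal degrees. Outside the Ccl20-led cluster, the cell at the 90th percentile held 2.60 to 2.75 times as much Mttp, relative to its own total, as the cell at the 10th, whereas the same ratio was 6.54 to 16.1 for Apoa4, 4.57 to 7.13 for Apoa1 and 4.42 to 5.98 for Apob. The sparse enzyme Dgat2 had 8.90 in Arid3a cKO 1 and 10.9 in WT, and in Arid3a cKO 2 its 10th percentile was 0. Spearman's rho across cells was 0.72 between Apoa1 and Apoa4 (mean of 3 libraries), 0.69 between Apoa1 and Apoc3, 0.66 between Apoa4 and Apob, and 0.55 between Apob and Mttp. It was -0.02 between Apoc3 and Dgat2. These values describe cells that share a library and were scaled to their own depth, and weak values among the sparse genes are no finding.

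Genes with a similar distribution over classes were mostly other absorptive genes. Over 20 sums of a class in a library, among 5586 genes, Apob was most like the cytochrome Cyp4f14 (Pearson r = 0.99), the sulfotransferase Sult2b1 (0.99) and Mttp (0.98). Apoa4 was most like Apoa1 (r = 0.995), the retinol-binding protein Rbp2 (0.99) and 2010106E10Rik (0.99). Mttp was most like the alcohol dehydrogenase Adh6a, Tmem120a and the acyl-CoA synthetase Acsl5 (each 0.99). The sums share libraries and mix cell classes of very different content, so that any enterocyte gene scores highly.

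To ask whether loss of Arid3a altered these genes in enterocytes, both cKO libraries were compared with WT. All 5 apolipoproteins and Creb3l3 were higher in both cKO libraries than in WT, and Mttp, Mogat2, Dgat1 and Dgat2 were lower in both, but none of the 10 passed the test. By edgeR's quasi-likelihood test with Benjamini-Hochberg adjustment over 13438 genes, 24 genes were called (0.179%), 0 of them among the 10. At an unadjusted p under 0.05 edgeR gave 1 of the 10, Dgat2, where 12.6% of all genes passed. DESeq2 called 0 of the 10, against 0.759% of all genes, and gave 0 of them at the unadjusted level. Of all genes tested, 39.4% were higher and 35.7% lower in both cKO libraries. The apolipoproteins covaried across cells, so that their shared direction is not 5 separate observations. The comparison has 1 residual degree of freedom, and the lone WT library is assumed to vary like the cKO libraries.

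The structural apolipoprotein Apob was counted at 1205, 1285 and 1058 CPM, a log2 ratio of CPM + 5 to WT of 0.19 in Arid3a cKO 1 and 0.28 in Arid3a cKO 2 (edgeR log2 change 0.23, adjusted p = 0.488). Its cKO values lay close together and above WT. Apoa4, which coats nascent chylomicrons, had 3333, 3848 and 3263 CPM, with log2 ratios of 0.03 and 0.24 (edgeR 0.13, adjusted p = 0.768). Here Arid3a cKO 1 was hardly apart from WT.

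Apoa1, the main protein of high-density lipoprotein, had log2 ratios of 0.09 and 0.48 on levels of 7975, 10453 and 7469 CPM (edgeR 0.30, adjusted p = 0.623). The distance between the cKO libraries exceeded that between Arid3a cKO 1 and WT. The lipase regulators had the same shape: Apoc3 stood at 1464, 1834 and 1311 CPM (log2 ratios 0.16 and 0.48, edgeR 0.32, adjusted p = 0.497). Apoc2 stood at 30.8, 44.7 and 29.4 CPM, from 1160, 1300 and 857 UMIs (log2 ratios 0.06 and 0.53, edgeR 0.35, adjusted p = 0.555). For Apoa1, Apoa4, Apoc2 and Apoc3, Arid3a cKO 2 was the high library, and Arid3a cKO 1 lay between it and WT.

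The median log2 ratio over the 5 apolipoproteins was 0.29, beside 0.005 over all genes tested, and it was 0.09 with Arid3a cKO 1 alone and 0.48 with Arid3a cKO 2 alone. As a share of the transcriptome, the apolipoproteins took 1.40%, 1.75% and 1.31% of enterocyte UMIs, and the other 5 genes 0.275%, 0.273% and 0.286%. In the plot of log2 ratios by cluster, the first panel shows the apolipoproteins to the right of 0 and the enzymes and Mttp to the left of it.

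Among the assembly and synthesis genes, values were tighter. Mttp had 1274, 1272 and 1334 CPM, with a log2 ratio of -0.07 in both cKO libraries (edgeR -0.08, adjusted p = 0.793), and Mogat2 had 362, 377 and 384 CPM (-0.09 and -0.03). Dgat1 was at 698, 649 and 730 CPM (-0.06 and -0.17, edgeR -0.13, adjusted p = 0.623). Dgat2, which makes triglyceride for storage droplets, was at 103, 102 and 119 CPM, with nearly equal log2 ratios of -0.21 and -0.22 (edgeR -0.24, adjusted p = 0.344). Both cKO values of Dgat2 lay well below WT relative to the distance between them, yet the test over all genes did not call it. The regulator Creb3l3 had 310, 330 and 292 CPM (log2 ratios 0.08 and 0.17, edgeR 0.12, adjusted p = 0.636).

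By cluster, the apolipoproteins were higher in both cKO libraries throughout in 2 of the 4 large clusters. In the Cubn-led cluster, all 5 were higher in both cKO libraries than in WT, against 34.0% of all genes, and Apob stood at 2099, 2083 and 1585 CPM (log2 ratios 0.40 and 0.39). In the cluster led by Akp3 and S100g, again all 5 were higher in both, against 46.9% of all genes, and Apoc2 stood at 45.2, 63.7 and 28.8 CPM (0.57 and 1.02). In the Ms4a18-led cluster 3 of 5 were (33.9% of all genes), and Apoa4 had 1815, 2561 and 2529 CPM (-0.48 and 0.02). In the Ccl20-led cluster 4 of 5 were (31.1% of all genes), and Apoa4 had 175, 258 and 256 CPM (-0.54 and 0.01), while Apoc2 was hardly counted there (0.756, 1.55 and 0.734 CPM). Creb3l3 was higher in both cKO libraries in each of the 4 clusters. No test was run by cluster.

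**Figure D4:**
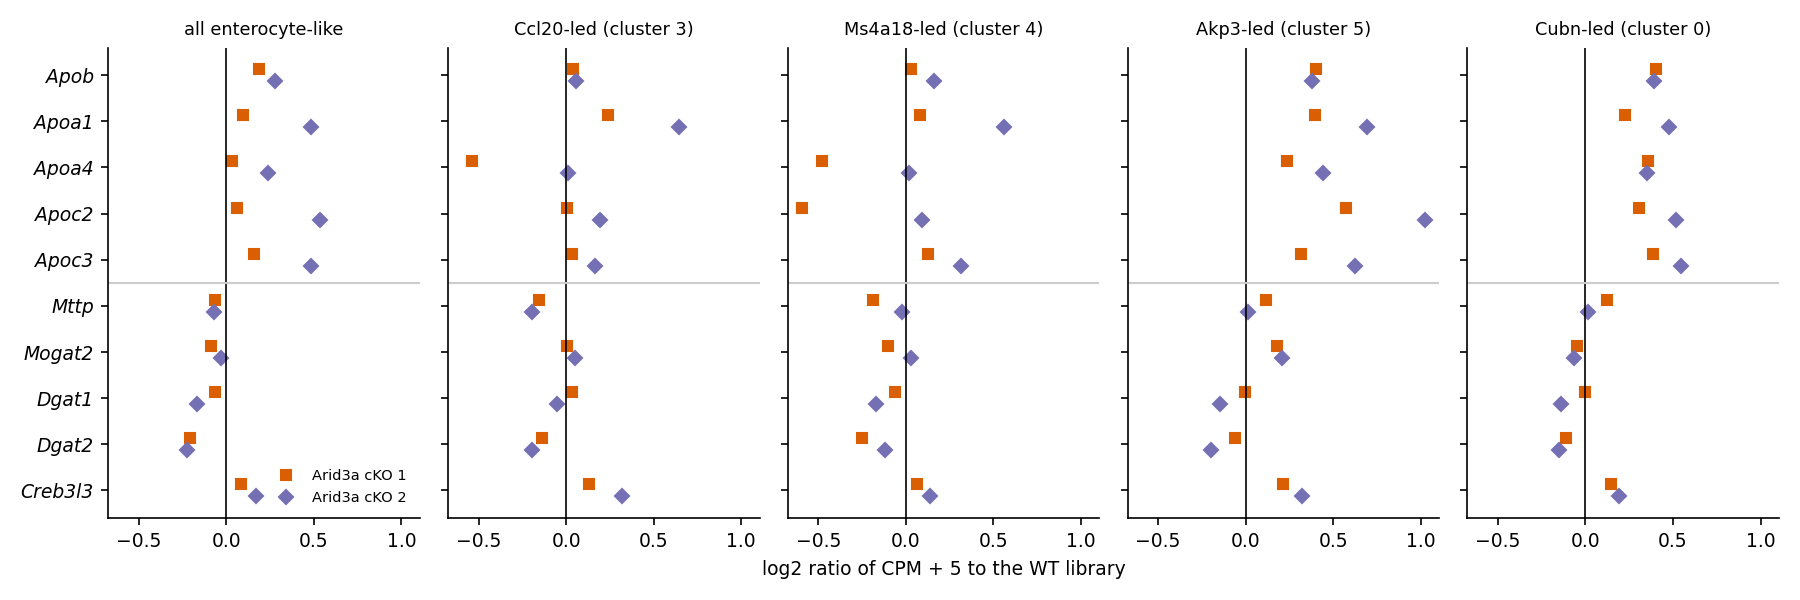
Log2 ratio of CPM + 5 in each Arid3a cKO library to WT for the 10 genes, in all enterocyte-like cells and in each of the 4 large enterocyte-like clusters, with 1 point per cKO library and a line at 0. The 5 apolipoproteins lie at 0.03 to 0.53 in all enterocyte-like cells, and are to the right of 0 in both libraries in the Akp3-led and Cubn-led clusters, but not Apoa4 and Apoc2 in the Ms4a18-led cluster or Apoa4 in the Ccl20-led cluster. None of the 10 passed edgeR's test in all enterocyte-like cells.

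Leaving out the Ccl20-led cluster, which was done after the data had been seen, made Apoc2 the only member to pass (edgeR log2 change 0.42, adjusted p = 0.00418). That comparison called 4.44% of 12494 genes, and 15.5% passed unadjusted, among them 2 of the 10. The apolipoproteins had a median log2 ratio of 0.36. The values of Mttp drew level with WT (log2 ratios 0.01 and -0.01). All 5 apolipoproteins were higher in both cKO libraries, where 38.9% of all genes were higher and 35.1% lower in both. With all enterocyte-like cells Apoc2 was not called, at an edgeR log2 change of 0.35. Nor was it called there without a filter on low counts (0.36), though it lay just outside the threshold. The call is thus not shared by the full set of enterocyte-like cells, and what it depends on was not tested.

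In crypt cells the direction of several of these genes depended on the processing. In ISC- and TA-like cells 0 of the 10 genes were called by edgeR, against 1.61% of 14367 genes, and 0 passed at an unadjusted p under 0.05, against 8.01% of all genes. DESeq2 also called 0, against 0.306% of all genes, with 0 at the unadjusted level. Apob stood at 93.8, 106 and 96.2 CPM, and Mttp at 112, 117 and 124 CPM. Apoa1 stood at 228, 352 and 326 CPM, below WT in Arid3a cKO 1 and above it in Arid3a cKO 2. The median log2 ratio over the 10 genes was -0.09 (-0.15 with Arid3a cKO 1 alone and 0.01 with Arid3a cKO 2 alone), and 32.4% of all genes were higher and 35.8% lower in both cKO libraries. Without integration of the libraries the median was 0.07, and Apoa1, Apoa4, Apob, Apoc3 and Creb3l3 all had positive edgeR log2 changes (0.06, 0.21, 0.25, 0.43 and 0.15), with 0 of the 10 called. Apoc3 had an unadjusted edgeR p of 0.00785 there (adjusted p = 0.243). Apoa1 and Apoa4 in ISC- and TA-like cells were at 2.07% to 5.43% of the enterocyte level, against 4.44% to 6.57% in goblet-like cells.

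The difference of the cKO effect between enterocyte-like and crypt cells was tested in 1 edgeR fit with library as a term, added after the data had been seen. Apoc2 was called (edgeR log2 difference 1.15, adjusted p = 0.0496), where 0.862% of 15196 genes were, and the other 9 genes were not. On the crypt side it rests on 13, 32 and 40 UMIs (0.524, 1.53 and 1.75 CPM), below the share found in goblet-like cells. For Apoa1 the difference was 0.47 (edgeR adjusted p = 0.302) and for Mttp 0.03 (adjusted p = 1).

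Over all kept cells, where the share of enterocytes (higher in both cKO libraries) enters as well, the apolipoproteins were again higher in both cKO libraries. Apob was at 686, 703 and 554 CPM (edgeR log2 change 0.36, adjusted p = 0.188), Apoc3 at 807, 973 and 658 CPM (0.47, adjusted p = 0.2102) and Apoa1 at 4373, 5528 and 3779 CPM (0.43, adjusted p = 0.364). None of the 10 was called, against 0.696% of 16670 genes, and 6 passed unadjusted (the 5 apolipoproteins and Creb3l3), against 11.0% of all genes. DESeq2 called 0 (0.714% of all genes) and passed 5 unadjusted. In all, 30.0% of genes were higher and 43.9% lower in both cKO libraries.

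Apoa1, Apob, Apoc2 and Apoc3 were called over all kept cells once the 5% of cells scoring highest for doublets had been removed (edgeR log2 changes 0.45, 0.37, 0.47 and 0.48, adjusted p = 0.000852, 0.0241, 0.0118 and 0.00136), where 4.28% of all genes were called. The same 4 genes were called without a filter on low counts, where 2.57% of 26362 genes were.

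Of 57 further genes of the pathway in 4 lists, 53 were tested in enterocyte-like cells and 0 were called by edgeR, while 16 passed unadjusted (3 higher and 13 lower). In both cKO libraries 33 of the 53 (62.3%) were lower and 11 higher, against 35.7% and 39.4% of all genes, and none of this was tested as a set. Of a list of 7 other genes of apolipoproteins and Apob editing, 3 were tested and 0 passed unadjusted. The most abundant were Apobec1, which edits Apob mRNA (27.7, 31.9 and 35.4 CPM), and Apoa2 (15.9, 16.8 and 13.9 CPM). Of 19 genes of particle assembly and export, 4 were higher and 12 lower in both cKO libraries, and 7 passed unadjusted, all lower, against 12.6% of all genes. They were led in level by Prap1 (5977, 7485 and 5232 CPM), a lipid-binding secreted protein that aids lipoprotein assembly, and P4hb, the partner subunit of Mttp (1235, 1265 and 1415 CPM). P4hb thus lay with Mttp on the lower side, and Prap1 with the apolipoproteins on the higher.

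Of 17 genes of glycerolipid synthesis and lipid droplets, 3 were higher and 9 lower in both, led by Acsl5 (835, 840 and 920 CPM) and Agpat2 (303, 317 and 311 CPM). Of 14 regulators, 3 were higher and 10 lower, led by Hnf4g (188, 196 and 182 CPM) and Hnf4a (100.3, 97.0 and 125 CPM). Without the Ccl20-led cluster, 5 genes of these lists were called, all lower, against 4.44% of all genes: the coat proteins of export vesicles Sec23b (edgeR log2 change -0.32, adjusted p = 0.0492), Sec24a (-0.34, adjusted p = 0.0254) and Sec24c (-0.31, adjusted p = 0.0496), the sterol acyltransferase Soat2 (-0.39, adjusted p = 0.00513) and Hnf4a (-0.32, adjusted p = 0.0380). The calls of Sec23b and Sec24c lie at the threshold.

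Other gene groups also differed between the libraries in the same enterocyte-like cells, and their part in the results above was not tested. Beside the counts below, 39.4% of all genes were higher and 35.7% lower in both cKO libraries. Markers of the proximal intestine summed to 2150, 2855 and 1274 CPM (4 of 5 higher in both cKO libraries), mostly S100g, a calcium-binding protein of the upper intestine (1873, 2573 and 1013 CPM), and 0 of them were called. Lower villus landmarks summed to 6873, 5978 and 11569 CPM (5 of 5 lower in both), and the antimicrobial Reg3g was called (979, 881 and 2788 CPM, edgeR log2 change -1.60, adjusted p = 0.0230). Villus tip landmarks summed to 120.3, 185 and 138 CPM, mostly Klf4 (97.7, 118 and 112 CPM). Arid3a cKO 2, the library with the highest level of each of the 5 apolipoproteins, stood apart in Ada (2.87, 31.6 and 4.49 CPM) and Enpp3 (14.2, 28.1 and 16.2 CPM). Distal markers summed to 16.5, 11.5 and 18.6 CPM, and 0 of either list were called.

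Leukocyte markers summed to 3.08, 4.33 and 9.69 CPM in enterocyte-like cells (4 of 4 tested lower in both, 1 of 7 at 0), endothelial and stromal markers to 0.425, 0.619 and 0.411 CPM (4 of 6 at 0), and red cell markers to 0.0266, 0 and 0 CPM (3 of 4 at 0). The share of mitochondrial UMIs was lower in the cKO libraries, with a median of 5.41%, 4.84% and 6.35% in enterocyte-like cells, which was not tested as a source of the differences.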

How the data were processed

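Single-cell transcripts were measured in 2 Arid3a cKO libraries and 1 WT library. Reads were processed by the authors in CellRanger 5.0.0 (per the file headers), and the values as deposited are raw counts of UMIs for each gene in each barcode, with CellRanger's own choice of barcodes. Human builds are listed in the submitters' processing notes, and the mouse build is not given in the sources used here. The 10 genes, the gene lists and the tests were chosen with earlier results of these data known.

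Cells with at least 1000 genes and at most 15% mitochondrial UMIs, the study's limits, were kept. Doublets were kept, since the methods name no removal, and Scrublet (scanpy 1.11.5) marked 110 of 5594 cells (1.97%). Libraries were integrated by canonical correlation analysis and clustered without the 10 genes in Seurat 5.3.0 (R 4.3.3, 30 components, resolution 0.3). A cluster took the class with at least 3 markers among its top 50 genes by fold, or otherwise the class with most markers at a fold of at least 1.5, a scoring rule set after the clusters had been seen. Tuft-like cells were shallow (median UMIs 0.329 times those of their libraries), with 8 tuft markers in the top 10 genes, and 57 of the enterocyte-like cells formed a cluster with interferon-response genes (Ifit3, Isg15) on top.

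For the lineage order, ISC-, TA- and enterocyte-like cells were ranked by diffusion pseudotime (scanpy) from an ISC-like cell, on components that did not use the 10 genes. UMIs were summed per library and class and scaled to CPM. Log2 ratios use CPM + 5, which understates changes of low genes. Sums were tested with edgeR 4.0.16 (TMM, filterByExpr, quasi-likelihood test, Benjamini-Hochberg adjustment over all genes tested, threshold 0.05), and with DESeq2 1.42.0 as an alternative. On simulated data the edgeR procedure recovered 69% of log2 changes of 1 and 92% of changes of 2. Changes as small as those of the 10 genes in enterocyte-like cells were not simulated. The sums of both cKO libraries differed by a chi-square of 40.1 per gene over 12596 genes, measured against counting error alone. Unequal mixtures of cells raise this value too, so it cannot show that the libraries are independent. They were counted as 2 samples by their labels. Nothing in the labels says how many mice made up a library, so that p-values measure the spread between these libraries. Named were all 10 genes, Arid3a, in each list up to 3 called genes per direction or else the 2 highest by mean CPM, and the 3 genes most similar to Apob, Apoa4 and Mttp by Pearson r over sums of at least 20 cells, among genes with a mean of at least 20 CPM. Sequences came from RefSeq tables. The genome coordinates come from GENCODE M21 and need not be those used in counting. Alternatives covered the normalization, test, filter, pseudocount, library total, cell limits, doublets, clustering, bins and each cKO library.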

Additional observations from a re-analysis of the deposited data

Results flagged for a closer look

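The cKO effect on Apoc2 differed between enterocyte-like and ISC- and TA-like cells by 1.15 on the log2 scale (edgeR, adjusted p = 0.0496 over 15196 genes), the only 1 of the 10 genes to pass, with a crypt side of 13, 32 and 40 UMIs in Arid3a cKO 1, Arid3a cKO 2 and WT.

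Barcodes outside the limits on genes and mitochondrial UMIs (4711, 5343 and 9906 barcodes, median mitochondrial share 47.0%, 50.5% and 53.9%) enter no comparison above, and they also held more of several of these transcripts in both cKO libraries than in WT. Relative to nuclear UMIs, the mean log2 ratio to WT was 0.30 for Apoa1, 0.45 for Apoa4, 0.38 for Apob, 0.70 for Apoc3 and 0.17 for Creb3l3. Apob stood at 1963, 2580 and 1723 CPM of nuclear UMIs there. In these barcodes 4 of 5 apolipoproteins were higher in both cKO libraries and 4 of the 5 other genes lower in both, against 33.3% and 31.8% of 16633 genes. They come from the same 3 libraries as the kept cells, no test was run, and what damaged cells or free RNA contribute to them was not tested.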

How the results depend on the processing

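In enterocyte-like cells the 10 genes kept the sign of their fitted log2 change in each of 90 values under 9 alternatives. Of these values, 1 (Apoc2 without the Ccl20-led cluster, added after seeing the data) came to pass the test. RLE, DESeq2, no filter and totals without the 10 genes refit the same sums, so their signs are not separate observations. Without the Ccl20-led cluster the log2 ratios of Mttp and Mogat2 had opposite signs in the cKO libraries. The number of genes called over all genes depended on the setting: in enterocyte-like cells it was 24, but 109 with RLE size factors, 102 with DESeq2, 685 without a filter, 195 with wider cell limits (500 genes, 25% mitochondrial UMIs), 408 without the 5% highest Scrublet scores, 115 without integration and 555 without the Ccl20-led cluster, where 1 of the 10 genes and 5 other lipid genes were called. In ISC- and TA-like cells it was 232, but 104 with RLE and 44 with DESeq2, and over all kept cells 116, but 60 with RLE, 677 without a filter and 703 without the highest Scrublet scores, with 4 of the 10 genes called under each of the last 2. The median log2 ratio over the 10 genes in enterocyte-like cells was 0.13, and 0.28 with clusters weighted equally (0.05 to 0.20 leaving out a cKO library). For the 5 genes that are not apolipoproteins it was -0.067, and -0.064 with the 10 genes left out of the totals, -0.088 with wider limits, -0.038 without integration, -0.017 without the Ccl20-led cluster and 0.0084 with equal clusters (-0.068 to -0.066 leaving out a cKO library). Over all kept cells it was 0.04, and -0.060 with wider limits. In ISC- and TA-like cells the median over the 10 genes was -0.09, and 0.039 without the highest Scrublet scores and 0.073 without integration. Changes, none of them called, turned sign in 12 of 80 values there: without integration Apoa1 (0.059), Apoa4 (0.21), Creb3l3 (0.15), Dgat1 (0.015), Dgat2 (0.0011) and Mttp (0.051), without the highest Scrublet scores Creb3l3 (0.17), Dgat1 (0.043) and Mttp (0.042), without a filter Apoc3 (-0.0037), and with wider limits Apoc3 (-0.12) and Mogat2 (-0.11). Over all kept cells Dgat1 turned with RLE (0.0017), DESeq2 (0.0017) and without the highest Scrublet scores (0.028), and Mttp with wider limits (-0.036). The cause of these shifts was not tested. The later position of the apolipoproteins on the lineage order held with 10 bins, without the highest Scrublet scores and without either cKO library (gap of 8.63 to 9.07 for the last). Leaving out a cKO library gives 1 library against 1, a value with no test. No paired analysis was possible because WT has a single library, and only replicate 1 occurs in both genotypes. Depth limits mainly Apoc2 in crypt cells, and a single WT library limits all comparisons.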
